A study of Homo sapiens with 6 samples.

Results

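Collagen and laminin chains are the subunit genes of the fibrils, microfilaments and sheets on which cells sit. The set was chosen by name, as every row of the deposited count table whose Ensembl identifier maps to a protein-coding symbol of the form COL, number, A, number, or of the form LAMA, LAMB or LAMC with a number. It holds 56 of the 60564 rows, 44 collagen and 12 laminin chains. Counts came from RNA-seq of the ovarian carcinoma line A2780 (human), with 3 libraries of the group GPT2si and 3 of the group GPT2sinc. GPT2 is the mitochondrial alanine aminotransferase, and the meaning of si and sinc is not written out in the labels. The labels give GPT2si and GPT2sinc as genotypes. All 6 libraries share the line A2780, poly(A) selection and strand-specific cDNA, and no dose, time or culture condition is given in the sources used here.

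A collagen molecule is a triple helix of alpha chains built on repeats with regularly spaced glycines. The chains are hydroxylated on proline and lysine in the endoplasmic reticulum by enzymes that need alpha-ketoglutarate, iron and ascorbate, and the trimers are then secreted. A laminin molecule is a cross-shaped trimer of 1 alpha, 1 beta and 1 gamma chain that polymerises at the cell surface. Laminins and type IV collagen form the separate networks of basement membranes, whereas types I, III and V build fibrils and type VI builds beaded microfilaments.

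GPT2 itself was measured at 93.7, 94.3 and 96.9 CPM in GPT2si libraries 1 to 3 and at 235, 230 and 219 CPM in GPT2sinc libraries 1 to 3. CPM is the usual count scaled to sequencing depth, here with depth corrected by TMM factors. GPT2 fell with GPT2si (log2 fold change −1.26, SE 0.08; Benjamini-Hochberg adjusted p = 0.000393 by the edgeR quasi-likelihood test). Total counts were 41931162 to 50882329 in GPT2si libraries and 43351984 to 45508530 in GPT2sinc libraries, so that 3 counts equal 0.0596 to 0.0769 CPM. Separate cultures are not mentioned for replicates, and a p-value therefore reflects the spread among these libraries only, which may be technical. Of 10 ovarian and epithelial markers, WT1 and KRT7 were at 0 in every library, PAX8 was at 0.195 against 0.176 CPM in GPT2si and GPT2sinc, and EPCAM at 1.61 against 1.93 CPM. The keratin genes KRT8 and KRT18 were at 38.4 and 31.2 CPM in GPT2si and 31.7 and 24.7 CPM in GPT2sinc. The 10 markers summed to 64.7 to 80.8 CPM in GPT2si libraries and 57.7 to 60.4 CPM in GPT2sinc libraries, and the part of this difference in the chain results was not tested. Fibroblast markers were also present: THY1 at 177 and 157 CPM, PDGFRA at 149 and 160 CPM and FBN1 at 43.4 and 42.7 CPM in GPT2si and GPT2sinc, with TCF21 at 0 in every library and FAP at 4 counts in GPT2sinc 2 alone. The 9 fibroblast markers summed to 375 to 397 CPM in GPT2si libraries and 373 to 378 CPM in GPT2sinc libraries. The 7 endothelial markers summed to at most 0.66 CPM in any library. The 7 leukocyte markers summed to 5.31 to 9.44 CPM in GPT2si libraries and 6.80 to 6.97 CPM in GPT2sinc libraries, mostly CD68 (5.75 against 4.62 CPM), with CD3E and NKG7 at 0 in every library.

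A2780 held many reads of a narrow set of these chains. In bulk RNA, fewer cells with a transcript and less of it per cell cannot be told apart. Of the 56 chains, 36 had a count in every library, 15 had a count in some libraries, and 5 (COL4A3, COL4A4, COL10A1, COL22A1 and LAMB4) were at 0 in all 6. By mean level, 10 chains reached at least 100 CPM, 10 lay from 10 to under 100 CPM, 10 from 1 to under 10 CPM and 21 below 1 CPM. COL6A3 and COL3A1 alone made up 68.9% ± 0.451 of the summed chain CPM in GPT2si and 70.5% ± 0.215 in GPT2sinc (SD, n = 3 each). The low-count filter of the test kept 39 chains. The 12 chains with some count that it left out had at most 11 counts in any library, and a difference in them was not detectable at this depth.

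**Figure D1:**
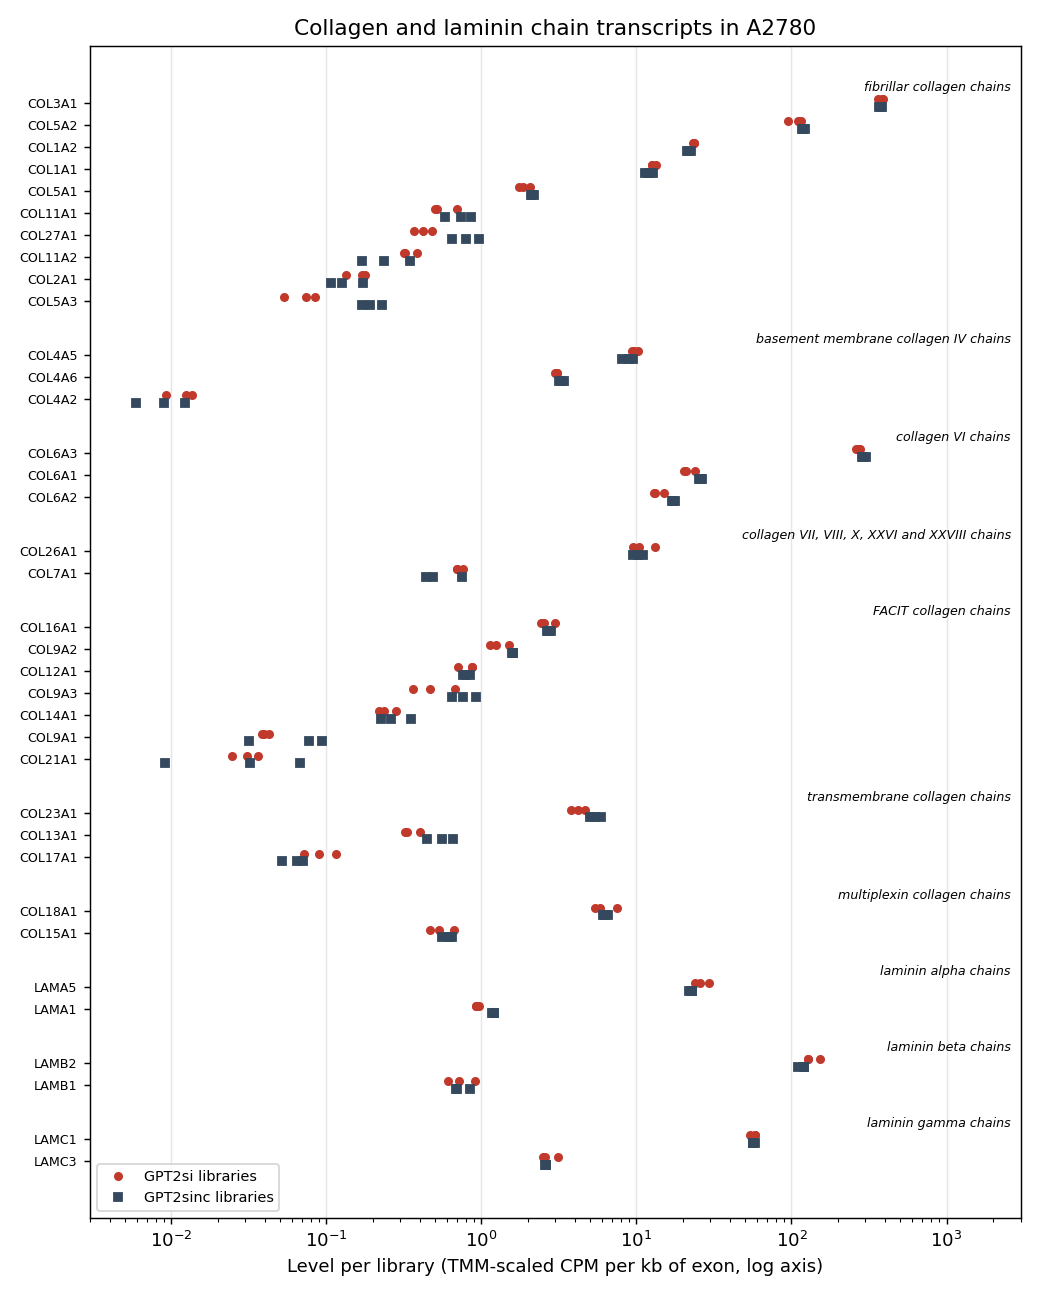
Level of each chain in each library, as TMM-scaled CPM per kb of exon on a log axis, for the 36 chains with a count in every library, with GPT2si libraries as circles above GPT2sinc libraries as squares. COL3A1 and COL6A3 sit at the right, COL4A2 at the left, and the spread between chains is far wider than between the groups.

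Because long transcripts collect more reads, chains were ordered by CPM per kb of exon, averaged over the 6 libraries. COL3A1 had 378 CPM per kb and rank 69 of 16447 protein-coding genes with any count, and COL6A3 had 281 CPM per kb and rank 98. LAMB2 followed with 126, COL5A2 with 113, LAMC1 with 57.1, LAMA5 with 24.4, COL6A1 with 23.9, COL1A2 with 22.6, COL6A2 with 15.5, COL1A1 with 12.5, COL26A1 with 10.6 and COL4A5 with 9.31 CPM per kb. LAMA5, COL6A1 and COL1A2 lie too close to be ordered: with the longest transcript in place of all exons, COL1A2 came before both, at 42.04 CPM per kb against 30.5 for LAMA5 and 30.1 for COL6A1. COL6A3 likewise came before COL3A1 by that length, at 513 against 464 CPM per kb. The same 12 chains led by either length.

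Across the tested chains 2 fell with GPT2si and 0 rose. The 2 that fell, COL27A1 and COL5A3, are fibrillar chains, at ranks 26 and 32 among the chains per kb. That is 5.13% of 39 chains called lower, beside 0.841% of the 17006 genes tested called lower, 0.576% called higher and 1.42% called in either direction (edgeR quasi-likelihood, adjusted p under 0.05). At an unadjusted p under 0.05, 9 chains were lower and 2 higher (23.1% and 5.13%), beside 9.27% of all genes lower and 10.3% higher. DESeq2 called 2 chains lower, COL27A1 and COL6A2, and 0 higher. It called 7.73% of the 13704 genes with an adjusted p in either direction, and gave none for 9 of the 39 chains, COL5A3 among them. With limma-voom 0 chains were called in either direction. The GPT2si libraries all lay below the GPT2sinc libraries for 13 chains and all above them for 4 (33.3% and 10.3%), beside 13.2% and 14.9% of all genes. The 9 and the 13 lower chains both include COL8A1. It passed the low-count filter through the GPT2sinc libraries, where it is high, so that its direction was favoured by the filter. The median log2 fold change was −0.15 over 32 tested collagen chains and 0.06 over 7 tested laminin chains, beside −0.01 over all genes tested. The collagen median lay between −0.19 and −0.11 in all alternatives, while the laminin median turned to −0.03 without GPT2si 1 and to −0.01 without GPT2sinc 3.

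**Figure D2:**
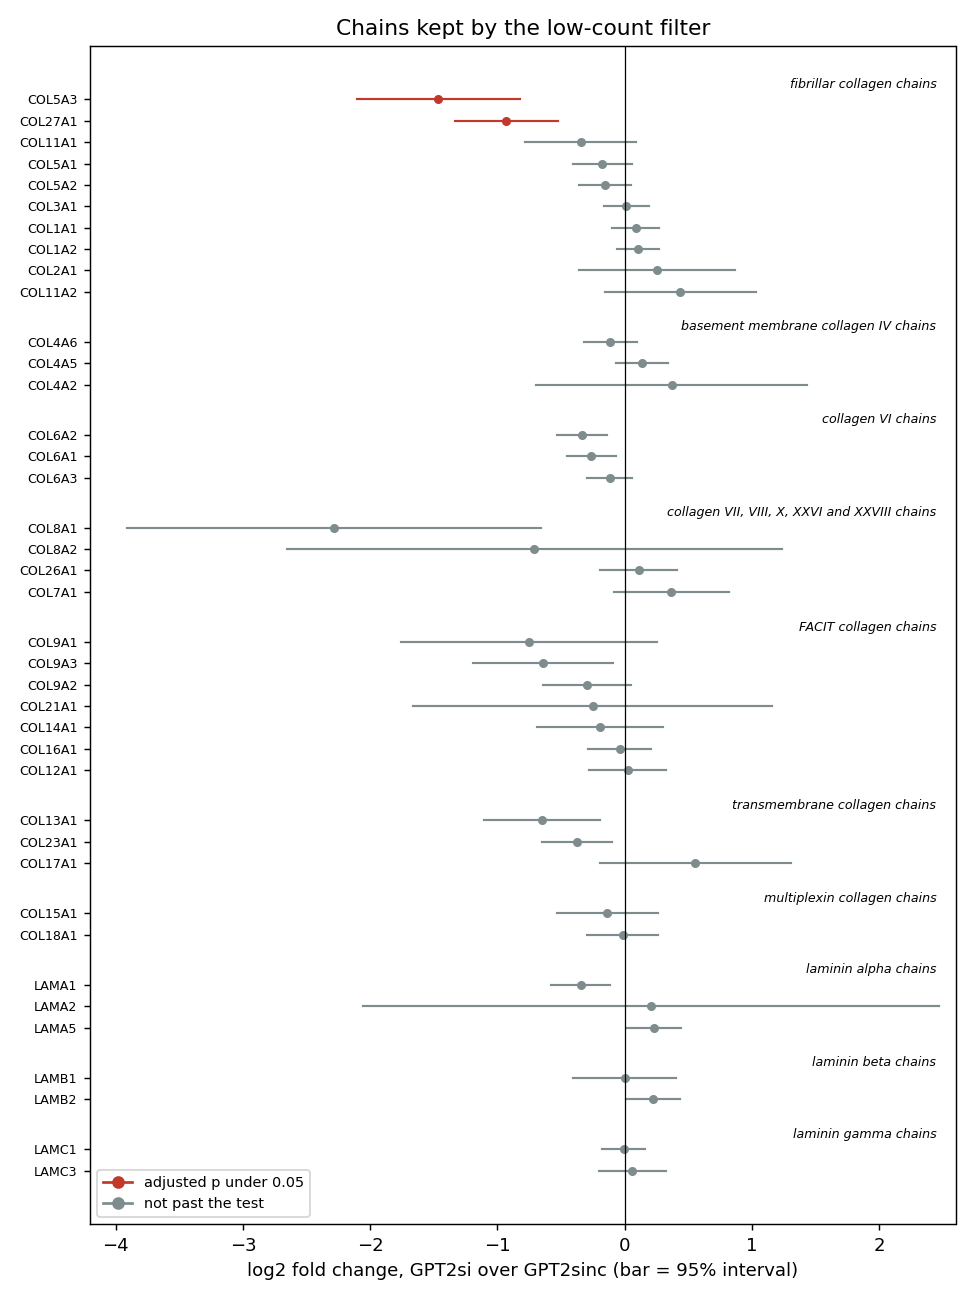
log2 fold change of GPT2si over GPT2sinc with its 95% interval for the 39 chains kept by the low-count filter, grouped by role. COL5A3 and COL27A1 are the 2 past the test, and the intervals of the abundant chains COL3A1, COL1A1, COL1A2 and LAMC1 are narrow and include 0.

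Among the fibrillar chains, the abundant ones did not pass the test. COL3A1, the sole chain of type III collagen, was at 2667, 2468 and 2623 CPM in GPT2si and at 2495, 2627 and 2557 CPM in GPT2sinc. The groups overlapped, and the 95% interval of its log2 fold change ran from −0.16 to 0.19. COL1A2 and COL1A1, the chains of type I collagen, were at 261 ± 2.69 and 126 ± 4.40 CPM in GPT2si and at 243 ± 6.82 and 119 ± 7.31 CPM in GPT2sinc (SD, n = 3 each). For COL1A2 the GPT2si libraries all lay above the GPT2sinc libraries (log2 fold change 0.10, SE 0.07), and for COL1A1 the groups overlapped. With GC and length offsets COL1A2 was at 0.31 with a wider SE of 0.14, and was not called (edgeR adjusted p = 0.1885). Type I collagen protein is usually built of a pair of COL1A1 chains and 1 COL1A2 chain. Transcript levels per kb are a different measure and do not give the proportions of protein chains. Per kb the COL1A1 transcript stood at 0.550 ± 0.0166 of COL1A2 in GPT2si and at 0.556 ± 0.0188 in GPT2sinc, and at 0.433 over all libraries by longest transcripts. COL5A2 of type V collagen was at 826, 705 and 861 CPM in GPT2si and at 909, 887 and 865 CPM in GPT2sinc (log2 fold change −0.15, SE 0.09). Its GPT2si libraries all lay below, with GPT2si 2 the lowest and GPT2si 3 close to GPT2sinc 3. The partner chain COL5A1 was at 21.1 ± 1.70 CPM in GPT2si and 23.8 ± 0.454 CPM in GPT2sinc, and per kb it stood at 0.0178 ± 0.00341 and 0.0179 ± 0.000748 of COL5A2.

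COL27A1 fell with GPT2si. It encodes the chain of a fibrillar collagen known mainly from cartilage and other stiff tissues, and was at 5.88, 5.13 and 6.71 CPM in GPT2si and at 13.6, 11.2 and 9.003 CPM in GPT2sinc. The highest GPT2si library lay below the lowest GPT2sinc library, and COL27A1 had a log2 fold change of −0.93 (SE 0.18; edgeR adjusted p = 0.0475). DESeq2 also called it (adjusted p = 0.000136), limma-voom did not (adjusted p = 0.0536), nor did edgeR with no low-count filter (adjusted p = 0.104).

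COL5A3, the third chain of type V collagen, also fell with GPT2si. It had 25, 14 and 26 counts in GPT2si and 71, 53 and 56 counts in GPT2sinc, or 0.475 ± 0.107 against 1.32 ± 0.206 CPM. The groups did not overlap, and COL5A3 had a log2 fold change of −1.46 (SE 0.29; edgeR adjusted p = 0.0476). DESeq2 gave it no adjusted p, as for 9 of the 39 tested chains, and it was not called by limma-voom (adjusted p = 0.0522) or with no low-count filter (adjusted p = 0.0922, edgeR). The antisense gene that overlaps it in GENCODE 29, ENSG00000267650, was at 0 in every library. Leaving out any 1 library other than GPT2si 2 ended both calls, with edgeR adjusted p from 0.0516 to 0.203 for COL27A1 and from 0.0581 to 0.215 for COL5A3, while the fold changes stayed between −1.07 and −0.77 and between −1.61 and −1.32 over all 6 such fits.

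The windows around the starts of both genes are shown because these are the chains that passed the test. They run from 250 bases before to 50 bases after the RefSeq start on GRCh38.p14, 5′ to 3′ on the strand of the gene. Capitals mark the GC box GGGCGG, the CCAAT box and the TATA box TATAAA, searched on both strands, none of which overlaps another here. COL27A1 is at chr9:114155287-114155586 on the plus strand, and COL5A3 at chr19:10010455-10010754 on the minus strand.
COL27A1: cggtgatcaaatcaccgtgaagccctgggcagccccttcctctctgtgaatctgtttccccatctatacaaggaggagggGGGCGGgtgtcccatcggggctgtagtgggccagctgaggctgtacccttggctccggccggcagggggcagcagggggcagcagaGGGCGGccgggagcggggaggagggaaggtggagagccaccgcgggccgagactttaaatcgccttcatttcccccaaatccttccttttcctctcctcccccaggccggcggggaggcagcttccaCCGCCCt
COL5A3: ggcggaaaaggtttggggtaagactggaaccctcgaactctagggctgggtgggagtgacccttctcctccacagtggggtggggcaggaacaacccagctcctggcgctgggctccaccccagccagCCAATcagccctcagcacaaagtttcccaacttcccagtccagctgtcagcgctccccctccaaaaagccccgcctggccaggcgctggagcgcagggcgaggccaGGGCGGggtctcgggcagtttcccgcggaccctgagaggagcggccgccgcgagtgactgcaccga
COL27A1 holds 3 GC boxes, and COL5A3 holds 1 GC box and 1 CCAAT box. Over 34943 such windows of all genes, 44.9% hold GGGCGG, 34.6% CCAAT and 11.6% TATAAA, and 24, 11 and 5 of the 41 chains matched to a window hold them.

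**Figure D3:**
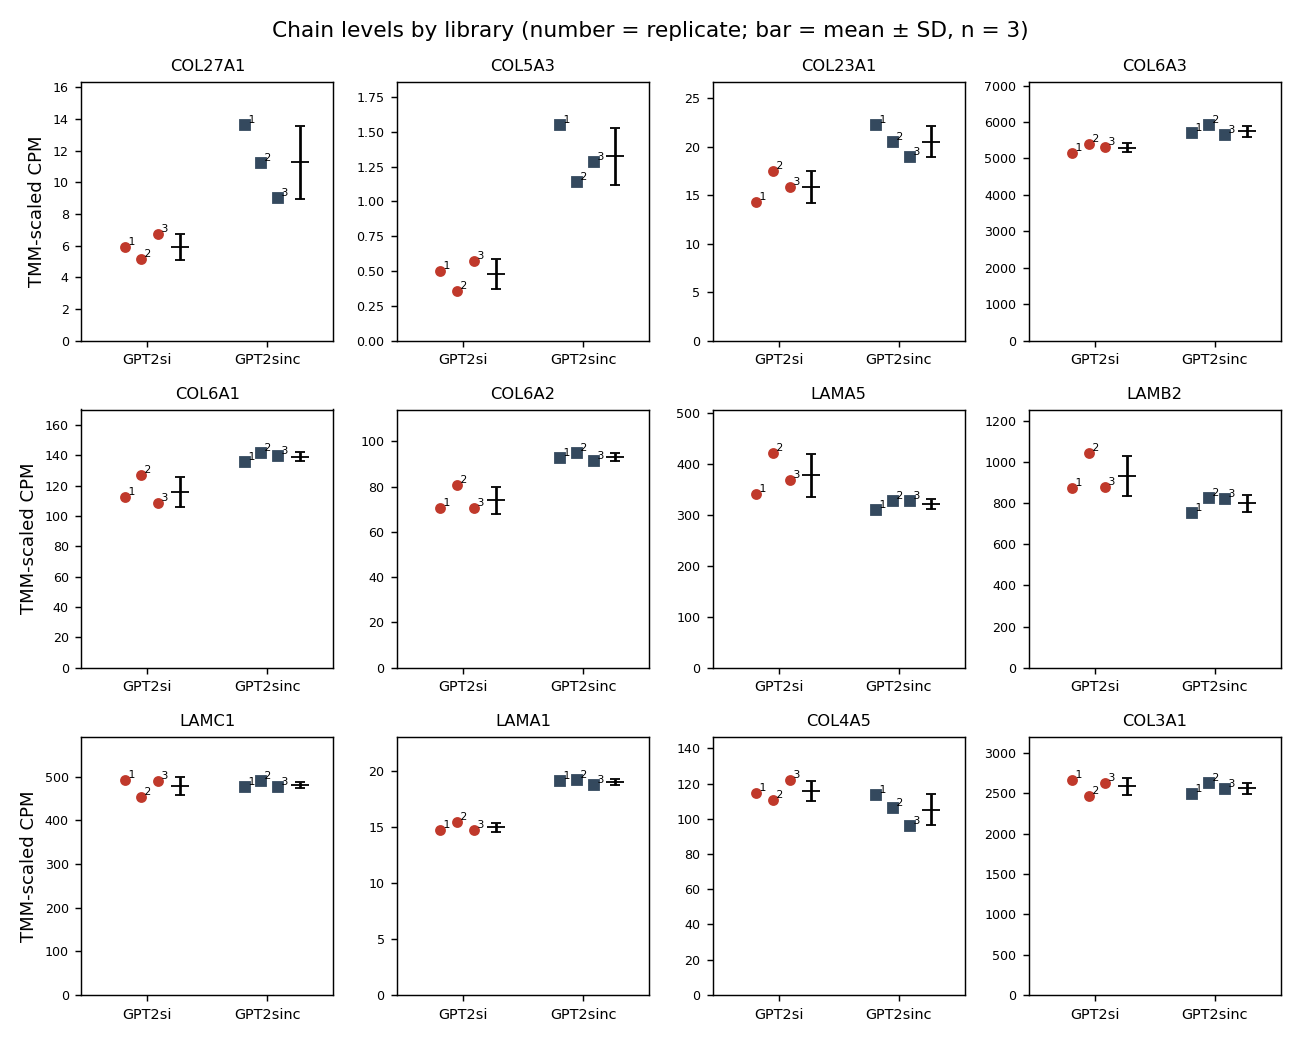
TMM-scaled CPM of 12 chains in each library, with GPT2si left of GPT2sinc, the replicate number beside each point and mean ± SD (n = 3) as bars, on axes that start at 0. The groups are apart for COL27A1 and COL5A3, apart by less for COL23A1, the 3 type VI chains, LAMA5, LAMB2 and LAMA1, and overlap for LAMC1, COL4A5 and COL3A1.

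The remaining fibrillar chains did not pass. COL11A1 was at 5.18 ± 0.986 against 6.59 ± 1.25 CPM and COL11A2 at 2.30 ± 0.250 against 1.70 ± 0.609 CPM in GPT2si and GPT2sinc, both chains of cartilage type XI collagen. COL2A1, the chain of type II collagen, was at 1.07 ± 0.153 against 0.902 ± 0.222 CPM. COL24A1 had 0 counts in every GPT2si library and 0, 4 and 7 in GPT2sinc libraries 1 to 3.

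Type VI collagen, which forms the beaded microfilaments next to cells, is assembled from COL6A1, COL6A2 and COL6A3 in equal parts. All 3 chains were lower in every GPT2si library than in every GPT2sinc library, as were 13.2% of all genes tested. The differences of the 3 chains were small and did not pass the test. COL6A2 was at 70.4, 80.7 and 70.6 CPM in GPT2si and at 92.7, 95.01 and 91.4 CPM in GPT2sinc (log2 fold change −0.33, SE 0.09; adjusted p = 0.094, edgeR). COL6A1 was at 112, 127 and 109 CPM in GPT2si and at 136, 142 and 139 CPM in GPT2sinc (−0.26, SE 0.09; adjusted p = 0.149, edgeR). COL6A3 was at 5156, 5403 and 5306 CPM in GPT2si and at 5687, 5906 and 5632 CPM in GPT2sinc (−0.12, SE 0.08; adjusted p = 0.43, edgeR). GPT2si 2 lay nearest to the GPT2sinc libraries for each of the 3.

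COL6A2 was called lower by DESeq2 (adjusted p = 0.0379), where 2 chains and 7.73% of the 13704 genes with an adjusted p were called, and COL6A1 and COL6A2 were called lower with GC and length offsets (adjusted p = 0.0135 and 0.0105), where 7 chains and 10.9% of genes were called. The same 2 were called without GPT2si 2 (adjusted p = 0.0174 and 0.0118), where 6 chains and 4.77% of genes were called. With the GC and length offsets COL6A3 was at −0.01. The transcript levels of the 3 chains, which do not measure the protein chains, were not equal. Per kb COL6A1 stood at 0.0806 ± 0.00563 of COL6A3 in GPT2si and at 0.0890 ± 0.00166 in GPT2sinc, and COL6A2 at 0.0509 ± 0.00313 and 0.0591 ± 0.000407. COL6A5 and COL6A6 had 2 and 5 counts in all, each in 1 GPT2sinc library.

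COL6A1 and COL6A2 lie on the plus strand of chromosome 21 in GENCODE 29, from 45981737 to 46005050 and from 46098097 to 46132849 on GRCh38. The COL6A2 window, at chr21:46097862-46098161 on the plus strand and marked as above, is shown because COL6A2 passed the test under several of the alternatives given above.
COL6A2: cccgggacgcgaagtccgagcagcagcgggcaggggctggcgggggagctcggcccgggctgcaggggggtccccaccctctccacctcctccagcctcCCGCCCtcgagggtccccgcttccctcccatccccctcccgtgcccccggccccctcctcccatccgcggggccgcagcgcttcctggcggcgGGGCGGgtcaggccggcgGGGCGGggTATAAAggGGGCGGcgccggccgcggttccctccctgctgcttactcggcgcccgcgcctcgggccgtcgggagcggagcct
It holds 4 GC boxes and 1 TATA box.

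Type IV collagen, the network former of basement membranes, was present as the X-linked chains COL4A5 and COL4A6 and with at most 12 counts a library as the widespread chains COL4A1 and COL4A2. COL4A5 was at 115, 111 and 122 CPM in GPT2si and at 113, 106 and 96.1 CPM in GPT2sinc, and COL4A6 at 28.7, 27.7 and 28.5 CPM in GPT2si and at 31.8, 30.6 and 29.5 CPM in GPT2sinc. The groups overlapped for COL4A5, while the GPT2si libraries all lay below for COL4A6. Neither passed the test (log2 fold change 0.14, SE 0.09, and −0.11, SE 0.09). COL4A5 was called higher with GC and length offsets, where 10.9% of all genes were called (edgeR adjusted p = 0.0344). The ratio of COL4A6 to COL4A5 per kb was 0.32, 0.32 and 0.30 in GPT2si and 0.36, 0.37 and 0.39 in GPT2sinc, and the groups did not overlap. COL4A1 had 2, 3 and 0 counts in GPT2si and 0, 0 and 2 in GPT2sinc, and COL4A2 had 12, 7 and 12 in GPT2si and 8, 11 and 5 in GPT2sinc. COL4A3 and COL4A4 were at 0, which allows up to 3 counts, or 0.0769 CPM, in the library of lowest effective depth.

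The 6 type IV genes lie in 3 head-to-head pairs, so that the members of a pair start close together on opposite strands. The RefSeq windows of COL4A1 and COL4A2 share 226 bases on chromosome 13, with starts 127 bases apart. Those of COL4A4 and COL4A3 share 82 bases on chromosome 2, and those of COL4A6 and COL4A5 share 121 bases on the X chromosome, with starts 419 and 380 bases apart. A window of the pair with few counts and a window of the pair with many are shown side by side, COL4A1 at chr13:110307108-110307407 on the minus strand and COL4A5 at chrX:108439588-108439887 on the plus strand.
COL4A1: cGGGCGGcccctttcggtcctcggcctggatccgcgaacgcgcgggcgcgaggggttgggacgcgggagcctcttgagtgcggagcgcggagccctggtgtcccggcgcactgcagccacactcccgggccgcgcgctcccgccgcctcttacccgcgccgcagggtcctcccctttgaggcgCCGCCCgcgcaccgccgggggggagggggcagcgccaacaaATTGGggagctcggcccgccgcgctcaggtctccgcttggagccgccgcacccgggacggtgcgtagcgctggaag
COL4A5: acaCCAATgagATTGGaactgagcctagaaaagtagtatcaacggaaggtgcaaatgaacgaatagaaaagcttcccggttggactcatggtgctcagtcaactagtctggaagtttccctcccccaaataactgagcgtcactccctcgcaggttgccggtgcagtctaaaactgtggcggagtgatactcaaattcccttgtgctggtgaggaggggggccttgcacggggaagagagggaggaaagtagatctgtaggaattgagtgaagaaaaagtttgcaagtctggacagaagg
The COL4A1 window is 76.7% G or C with 45 CpG dinucleotides and holds 2 GC boxes and 1 CCAAT box. The COL4A5 window is 49.3% G or C with 8 CpG dinucleotides and holds 2 CCAAT boxes.

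Laminin transcripts in A2780 came mainly from LAMA5, LAMB2 and LAMC1, 1 chain of each kind. LAMA5, the alpha chain of many adult basement membranes, was at 340, 422 and 369 CPM in GPT2si and at 310, 326 and 327 CPM in GPT2sinc (log2 fold change 0.23, SE 0.09; adjusted p = 0.22, edgeR). LAMB2, a beta chain, was at 875, 1046 and 881 CPM in GPT2si and at 752, 826 and 821 CPM in GPT2sinc (0.22, SE 0.09; adjusted p = 0.2355, edgeR). The GPT2si libraries all lay above the GPT2sinc libraries for both, with GPT2si 2 the highest, and neither passed. LAMC1, the gamma chain of most laminins, was at 493, 454 and 489 CPM in GPT2si and at 477, 490 and 476 CPM in GPT2sinc, and the groups overlapped. Without GPT2si 2 the log2 fold changes of LAMA5 and LAMB2 were 0.13 and 0.12. LAMA5 was called higher with GC and length offsets, where 10.9% of all genes were called (edgeR adjusted p = 0.0441). Exons of LAMA5 overlap those of ADRM1, a proteasome gene on the opposite strand at 146 against 108 CPM in GPT2si and GPT2sinc, and as the strand setting of the counting is not stated, their reads cannot be told apart.

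LAMB2 stood at 2.40 ± 0.364 of LAMC1 per kb in GPT2si and at 2.04 ± 0.0943 in GPT2sinc, and LAMA5 at 0.465 ± 0.0727 and 0.393 ± 0.0113 (SD, n = 3 each). The groups did not overlap in either ratio, but GPT2si 2 was the highest library in both, at 2.821 for LAMB2 and 0.5463 for LAMA5. For LAMB2, GPT2si 1 and 3 were at 2.175 and 2.207, beside 2.114 in the highest GPT2sinc library. For LAMA5 they were at 0.4057 and 0.4439, beside 0.4048 in the highest GPT2sinc library. LAMA1, the alpha chain of early embryonic basement membranes, was at 14.7, 15.4 and 14.7 CPM in GPT2si and at 19.1, 19.2 and 18.7 CPM in GPT2sinc (log2 fold change −0.35, SE 0.10; adjusted p = 0.124, edgeR). Its groups did not overlap, and it was called lower without GPT2si 2, where 4.77% of all genes were called (edgeR adjusted p = 0.0441). With GC and length offsets LAMA1 was at −0.22 (SE 0.11, edgeR adjusted p = 0.211). It was called in 0 of the 8 alternatives that kept all libraries. LAMC3, another gamma chain, was at 20.6 ± 2.57 against 19.8 ± 0.116 CPM. LAMB1 was at 6.06 ± 1.23 against 6.07 ± 0.740 CPM, with exons that overlap those of DLD on the opposite strand (29.2 against 36.9 CPM). LAMA2 had at most 17 counts in a library. LAMA3 and LAMB3 had at most 4 counts in any library, and LAMA4 at most 11.

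Among collagens that decorate fibrils (FACIT chains), none of the 7 tested passed. An unadjusted p under 0.05 was reached by 1 lower chain, beside 9.27% of all genes. COL16A1 was at 24.6 ± 2.63 against 25.2 ± 0.695 CPM, COL12A1 at 10.2 ± 1.204 against 10.01 ± 0.464 CPM and COL9A2 at 5.46 ± 0.828 against 6.71 ± 0.0437 CPM in GPT2si and GPT2sinc. COL9A3, which overlaps TCFL5 on the opposite strand (19.6 against 23.6 CPM), was at 2.42 ± 0.767 against 3.77 ± 0.660 CPM (log2 fold change −0.64, SE 0.25; adjusted p = 0.198, edgeR). COL14A1 was at 2.12 ± 0.291 against 2.43 ± 0.566 CPM, and COL9A1 and COL21A1 were below 1 CPM in every library. COL19A1 and COL20A1 had at most 10 counts in a library.

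Of the membrane-spanning collagens, COL23A1 was at 14.3, 17.5 and 15.8 CPM in GPT2si and at 22.2, 20.5 and 19.0 CPM in GPT2sinc (log2 fold change −0.37, SE 0.12; adjusted p = 0.143, edgeR). COL13A1, found at cell adhesions and at the neuromuscular junction, was at 1.91, 1.95 and 2.37 CPM in GPT2si and at 3.88, 3.29 and 2.62 CPM in GPT2sinc (−0.65, SE 0.20; adjusted p = 0.132, edgeR). Of the 3 membrane-spanning chains tested, the GPT2si libraries all lay below for these 2 and above for COL17A1, beside 13.2% and 14.9% of all genes. An unadjusted edgeR p under 0.05 was reached by the 2 lower chains, beside 9.27% of all genes. COL23A1 was called lower with GC and length offsets and without GPT2si 2 (edgeR adjusted p = 0.0312 and 0.0445). Those fits called 10.9% and 4.77% of all genes. COL17A1, the collagen of hemidesmosomes, was at 0.654 ± 0.159 against 0.442 ± 0.0693 CPM, and COL25A1 had at most 8 counts in a library.

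The multiplexin COL18A1, whose tail can be cut to endostatin, was at 53.3 ± 9.10 against 53.8 ± 2.05 CPM in GPT2si and GPT2sinc, with SLC19A1 on the opposite strand at 29.6 against 21.2 CPM, and COL15A1 was at 3.69 ± 0.661 against 4.05 ± 0.294 CPM. COL26A1 was at 34.9 ± 6.17 against 32.3 ± 2.31 CPM. COL7A1, the chain of the anchoring fibrils below epithelia, was at 7.95 ± 0.450 against 6.16 ± 1.83 CPM. COL8A1 had 3, 0 and 6 counts in GPT2si and 11, 13 and 21 in GPT2sinc, and was kept by the filter through the GPT2sinc libraries (adjusted p = 0.136, edgeR). COL8A2 overlapped between the groups with at most 24 counts, and COL28A1 had at most 5.

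The spread between replicate libraries was wider in GPT2si. Over 30 tested chains of at least 1 CPM, the median coefficient of variation was 10.6% in GPT2si and 4.23% in GPT2sinc. The GPT2si libraries also differed by base composition. Over 34 chains with at least 10 counts in every library, the level in GPT2si 2 minus the mean of GPT2si 1 and 3 was a median 0.21 on the log2 scale for 18 chains of at least 60% GC and −0.185 for 8 chains below 50% GC. The same difference was −0.09 and 0.07 in GPT2si 1 and −0.09 and 0.03 in GPT2si 3, and between −0.01 and 0.02 in the 3 GPT2sinc libraries. Across the 34 chains, which share each library and its depth, the difference in GPT2si 2 correlated with GC content at r = 0.427 and rho = 0.511. It ran the other way in GPT2si 1, at r = −0.458 and rho = −0.534, and r was −0.178 in GPT2si 3 and between −0.107 and 0.062 in the GPT2sinc libraries. Each library is set against the others of its group, so the differences of a chain cancel over the group. A slope in GPT2si 2 therefore forces an opposite slope over GPT2si 1 and 3 together, which is not a separate result. LAMA5, LAMB2, COL6A1, COL6A2 and COL26A1 all have at least 60% GC, and COL5A2 and LAMC1 have less than 50%. Not every chain followed the trend in GPT2si 2. COL27A1 and COL5A3, which passed the test, also have at least 60% GC, but their differences there were −0.293 and −0.568. They were negative for COL2A1, COL11A2 and COL7A1 of that GC class too, and positive for COL1A2 and COL9A1 below 50%. The part of this trend in the differences between the groups was not tested beyond the fits with GC and length offsets and without GPT2si 2.

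**Figure D4:**
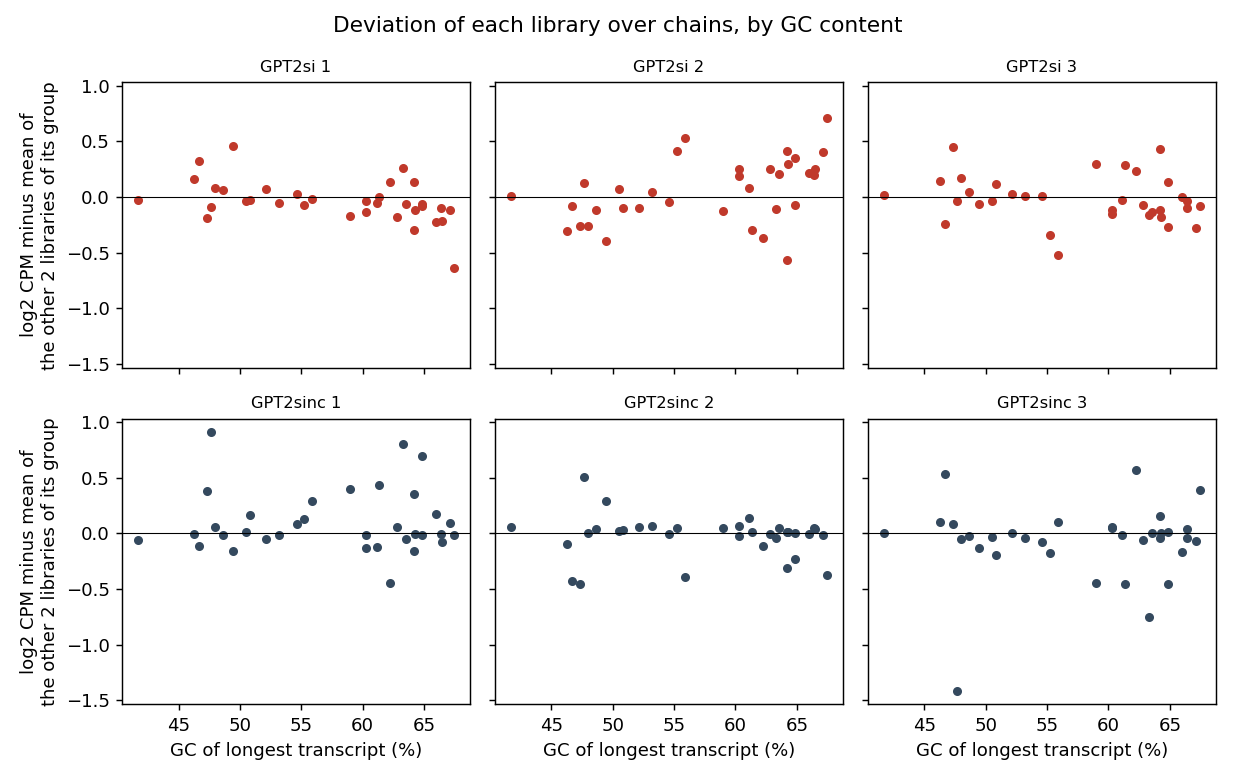
Difference in log2 CPM between each library and the mean of the other 2 libraries of its group, against GC content of the longest transcript in percent, for 34 chains as points. In GPT2si 2 the chains of at least 60% GC lie mostly above 0 and those under 50% mostly below, GPT2si 1 slopes the other way (r = −0.458), and in the 3 GPT2sinc libraries r lies between −0.107 and 0.062. The differences of a chain cancel within a group, so the slopes of the libraries in a group are not independent.

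Among the genes that hydroxylate and fold collagen, 1 of 21 fell and 0 rose, beside 0.841% of all genes tested called lower and 0.576% called higher. Their median log2 fold change was 0.04. P4HA2, a catalytic subunit of prolyl 4-hydroxylase, was at 214, 183 and 194 CPM in GPT2si and at 292, 290 and 279 CPM in GPT2sinc and fell (−0.55, SE 0.08; adjusted p = 0.0244, edgeR). The related subunit P4HA1 was at 123 ± 24.4 against 169 ± 5.93 CPM, and the lysyl hydroxylases PLOD1 and PLOD2 at 1243 ± 71.3 against 1570 ± 64.6 CPM and at 20.1 ± 7.49 against 40.4 ± 9.95 CPM (adjusted p = 0.118, 0.079 and 0.0979, edgeR). The GPT2si libraries lay below the GPT2sinc libraries for all 4, which are the members of smallest p. Over the 21 genes they lay below for 5 and above for 3, beside 13.2% and 14.9% of all genes. An unadjusted edgeR p under 0.05 was reached by 4 lower genes and 1 higher gene (P3H1), beside 9.27% and 10.3% of all genes. DESeq2, which called 7.73% of genes, called P4HA1, PLOD1 and PLOD2 lower (adjusted p = 0.027, 0.0184 and 0.00176). They were also called lower by edgeR with GC and length offsets, where 10.9% of genes were called (adjusted p = 0.0141, 0.00887 and 0.00736). P4HA1 and PLOD2 were called lower under the replicate block, where 252 genes were higher and 306 lower. PLOD1 was called lower with upper-quartile factors, where 75 genes were higher and 167 lower. Without GPT2si 2, where 4.77% of genes were called, P4HA1 and PLOD1 were called lower. The collagen chaperone SERPINH1 was at 1104 ± 87.1 against 1033 ± 34.6 CPM.

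Of 13 tested genes that trim and crosslink collagen, none passed in either direction. An unadjusted p under 0.05 was reached by 1 higher and 3 lower genes, beside 10.3% of all genes higher and 9.27% lower. LOX, a lysyl oxidase, was at 2.52 ± 0.985 against 4.45 ± 1.61 CPM, its relative LOXL3 at 76.8 ± 4.53 against 92.1 ± 7.97 CPM, the procollagen peptidase ADAMTS2 at 1.48 ± 0.205 against 2.20 ± 0.431 CPM, and the enhancer of procollagen cleavage PCOLCE at 432 ± 72.4 against 359 ± 15.1 CPM. None of 8 tested basement membrane partners passed. An unadjusted p under 0.05 was reached by 1 higher and 1 lower gene, beside the same shares of all genes. SPARC, a collagen-binding glycoprotein, was at 871 ± 50.2 against 691 ± 43.7 CPM (adjusted p = 0.0866, edgeR), the proteoglycan gene HSPG2 (perlecan) at 224 ± 19.9 against 266 ± 3.92 CPM, the fibulin gene FBLN2 at 2.43 ± 0.0726 against 3.16 ± 0.522 CPM and AGRN (agrin) at 294 ± 45.4 against 268 ± 10.1 CPM. SPARC was called higher by DESeq2, which called 7.73% of genes (adjusted p = 0.0223). Under the GC and length offsets, where 10.9% of genes were called, SPARC was called higher and LOXL3 and HSPG2 lower (edgeR adjusted p = 0.0364, 0.0377 and 0.0347). HSPG2 was also called lower without GPT2si 2, where 4.77% of genes were called (edgeR adjusted p = 0.0207).

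Of 16 tested collagen and laminin receptors, 1 rose and 0 fell, beside 0.576% of all genes tested called higher and 0.841% called lower. BCAM, a receptor for the laminin chain LAMA5, was at 166, 217 and 174 CPM in GPT2si and at 112, 110 and 115 CPM in GPT2sinc and rose (0.72, SE 0.11; adjusted p = 0.0219, edgeR). GPT2si 2 was the highest library, and without it the log2 fold change was 0.58. The syndecan SDC1, the integrin partner CD151 and the collagen receptor kinase DDR1 were higher in every GPT2si library but did not pass (0.50, 0.43 and 0.32; adjusted p = 0.0759, 0.101 and 0.115, edgeR). Over the 16 receptors the GPT2si libraries all lay above the GPT2sinc libraries for 6 and below for 1, beside 14.9% and 13.2% of all genes. An unadjusted edgeR p under 0.05 was reached by 5 higher and 0 lower receptors, beside 10.3% and 9.27% of all genes. CD44 was at 0 in all libraries. Of 18 tested genes of matrix breakdown and its inhibitors, 1 rose and 1 fell, beside 0.576% of all genes called higher and 0.841% called lower. TIMP3, an inhibitor of metalloproteinases that binds to matrix, was at 116 ± 3.68 against 86.8 ± 3.68 CPM and rose (0.41, SE 0.08; adjusted p = 0.0468, edgeR). ADAMTS4, a protease of matrix proteoglycans, was at 16.1 ± 1.56 against 23.6 ± 0.850 CPM and fell (−0.55, SE 0.11; adjusted p = 0.0499, edgeR). TIMP1 was at 437 ± 73.3 against 303 ± 24.0 CPM (adjusted p = 0.0684, edgeR) and the stromelysin gene MMP3 at 3.17 ± 0.410 against 1.75 ± 0.472 CPM (adjusted p = 0.0979, edgeR). Over the 18 genes the GPT2si libraries all lay above for 4 and below for 2, beside 14.9% and 13.2% of all genes. An unadjusted edgeR p under 0.05 was reached by 3 higher genes and 1 lower gene, beside 10.3% and 9.27%. DESeq2, which called 7.73% of genes, called SDC1, CD151, TIMP1 and MMP3 higher (adjusted p = 0.0086, 0.0253, 0.00469 and 0.0286). These and DDR1 were called higher by the edgeR fit with offsets for GC and length (adjusted p from 0.00764 to 0.0392). That fit called 10.9% of genes. SDC1 and TIMP1 were also called higher under the replicate block and without GPT2si 2. The block called 252 genes higher and 306 lower, and the fit without GPT2si 2 called 4.77% of genes. Each of the calls of P4HA2, BCAM, TIMP3 and ADAMTS4 was lost in at least 4 of the 6 fits that leave out a library.

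**Figure D5:**
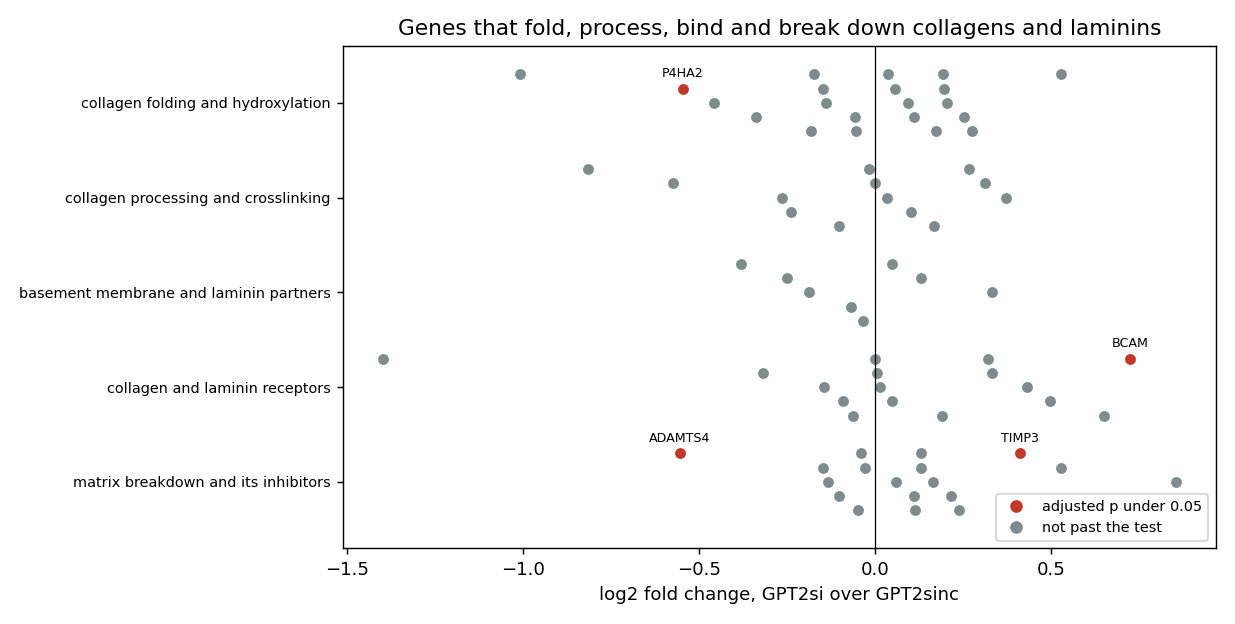
log2 fold change of GPT2si over GPT2sinc for the tested members of 5 lists of genes that act on collagens and laminins, 1 point a gene, with vertical offsets for legibility only. P4HA2 and ADAMTS4 are past the test on the lower side and BCAM and TIMP3 on the higher side.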

How the data were processed

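RNA-seq gene counts were deposited by the authors as 1 table of raw counts per gene for 6 strand-specific poly(A) libraries of A2780, 3 labelled GPT2si and 3 labelled GPT2sinc. Per the submitters' processing notes, CASAVA and StringTie were used. The aligner, strand setting of the counting, build and annotation: not given in the sources used here. All sample columns were matched to the labels. Gene type, length, GC content and positions came from GENCODE 29 on GRCh38, and windows around gene starts from RefSeq.

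Library totals were 41931162 to 50882329 counts. A floor of 3 counts is 0.0596 to 0.0769 CPM. No molecular identifiers are mentioned, so floors cover counting error only. CPM used TMM factors. Genes kept by filterByExpr were tested across all 17006 of them with the edgeR 4.0.16 quasi-likelihood test (limma 3.58.1, R 4.3.3), with Benjamini-Hochberg adjustment and a threshold of 0.05. Levels between genes were compared per kb of exon. Alternatives were other scalings and filters, DESeq2 1.42.0, limma-voom, GC and length offsets, a replicate block and leaving out each library. Scripts were tested on simulated data.

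Chains, gene lists and the rule for named genes (chains past the test in any fit or leading their role list or all chains per kb, up to 4 genes of smallest p in each matrix list, and up to 4 markers of highest CPM in each marker list) were chosen with earlier results of these data known. Other chains are given for completeness, with 1 chain and 1 marker gene not reported here, and SERPINH1, CD44 and the markers at or near 0 were added after their values were seen. Deviations of same-numbered libraries correlated at 0.0855, 0.114 and −0.187, so the numbers were not taken as pairs.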

Additional observations from a re-analysis of the deposited data

How the results depend on the processing

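Over all genes, 98 were higher and 143 lower. Higher counts were 61 with DESeq2 size factors, 17 with no filter, 569 with DESeq2, 1070 with GC and length offsets and 0 to 377 when 1 library was left out. Lower counts were 27 with no filter, 491 with DESeq2, 776 with the offsets and 1 to 459 when 1 library was left out. Under the replicate block 252 genes were higher and 306 lower, and the chains called were COL5A3 and COL27A1, as without it. The numbers did not pair the libraries. Of the chains, 0 were higher, against 2 with the offsets (COL4A5 and LAMA5). The 2 lower chains became 0 with no filter, 0 with limma-voom, 5 with the offsets and 0 to 6 when 1 library was left out. Without GPT2si 2 the 6 were COL6A1, COL6A2, COL5A3, COL23A1, COL27A1 and LAMA1. The cause was not tested. Of 705 comparisons of 51 genes with an alternative, 26 changed sign. COL3A1 was at −0.0307 with upper-quartile factors and −0.0073 with the offsets. COL12A1 was at −0.0222 with upper-quartile factors. LAMB1 was at 0.0029 with DESeq2 size factors, 0.0036 with DESeq2 and 0.0101 with the offsets, and LAMC1 at 0.0174 with the offsets. When 1 library was left out, the log2 fold changes that crossed 0 ran for COL3A1 from −0.014 to 0.0349, COL26A1 from −0.0554 to 0.2029, COL16A1 from −0.1431 to 0.0157, COL12A1 from −0.0394 to 0.1033, COL18A1 from −0.1753 to 0.0769, LAMA2 from −0.6324 to 0.73, LAMB1 from −0.1769 to 0.109, LAMC1 from −0.0346 to 0.0156, LAMC3 from −0.0588 to 0.1223 and for AGRN from −0.0164 to 0.2021. The other 41 genes kept their sign in all alternatives run. Depth limits the 12 chains with counts that were not tested.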
